A study of Mus musculus with 36 samples.

Results

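A set of 10 genes that mark T cells were followed through 36 subcutaneous mouse tumors profiled by bulk mRNA sequencing. They were chosen by name and found in the count table by their Ensembl identifiers, 10 of 37417 genes. Cd3d, Cd3e and Cd3g encode the signaling chains of the T cell receptor complex. Cd4, Cd8a and Cd8b1 encode the co-receptors of helper and cytotoxic T cells. Lck, Zap70 and Cd5 encode a kinase bound to the co-receptors, the kinase recruited to the triggered receptor and a surface inhibitor of its signal. Foxp3 encodes the transcription factor that defines regulatory T cells.

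As background, the receptor on a T cell reads a peptide held by a major histocompatibility molecule and passes the signal through the CD3 chains to Lck and Zap70. CD8-positive cells kill tumor cells, CD4-positive cells help other immune cells, and the Foxp3-positive fraction of the CD4 lineage restrains both. Antibodies against CTLA4 and PD-1 act on receptors that T cells carry, so the amount and kind of T cell transcript in a tumor is a common readout in studies of checkpoint blockade. In mice, Cd8a is also found in some dendritic cells, where Cd8b1 is not, Cd4 is found in some dendritic cells and Cd5 in some B cells.

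Per the labels, mice were 12 weeks old and wild type and carried MC38 or PancO2 tumors on C57BL/6J, or CT26 tumors on BALB/c. MC38 and CT26 are colon cancer lines, PancO2 is a pancreatic cancer line, and each is a transplanted line in a host with its own immune system. Mice received 10 mg per kg of control IgG from rat serum, anti-CTLA4 or anti-PD-1 by intraperitoneal injection, which gave 9 labelled groups of 4 libraries, and tumors were taken at end stage. Libraries are named here by labelled group and mouse number.

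The labels do not follow the libraries' own transcripts. H2-Ea-ps, an MHC class II gene that is expressed in BALB/c and silent in C57BL/6 mice, went against the labelled strain in 16 of 36 libraries. The libraries were therefore described in 3 classes of 12, set by measured levels and not by the study: an H2-Ea-ps class above 10 CPM (counts scaled to a library total of 1000000), a Cp class above 1000 CPM of Cp, the gene of the copper carrier ceruloplasmin, and a class with neither. H2-Ea-ps ran from 32.8 to 134 CPM in its class and reached at most 0.0845 CPM elsewhere. Cp ran from 1389 to 2168 CPM in its class, and the closest library below the limit, PancO2 IgG 49, had 611 CPM. By label, MC38, CT26 and PancO2 gave 4 libraries each to the H2-Ea-ps class, 4, 3 and 5 to the Cp class and 4, 5 and 3 to the class with neither.

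Counts assigned to genes totalled 7883106 to 41751023 per library, with a median of 27968270. PancO2 anti-PD-1 71, in the H2-Ea-ps class, stood apart. It was the shallowest library, with 86.5% of its reads naming no gene against 44.8% to 63.4% in the other 35, and 15.7% of its counts were mitochondrial against 2.80% to 4.35%. It also held B cell and lymphoid transcripts, with 19.03 CPM of Pax5, 14.3 CPM of Cd79a and 2.79 CPM of Rag1. It is marked in the plots, and results that rest on it are given without it. The 19 other genes of the receptor complex and its signaling that were listed summed to between 83.0 CPM and 224.5 CPM in the 36 libraries. Much of this sum was Lcp2 and Fyn. Lcp2 had medians of 31.95, 40.07 and 44.01 CPM in the H2-Ea-ps, Cp and neither classes. Fyn had 30.69, 57.31 and 55.78 CPM, where the sum had 101, 157.1 and 129.1 CPM. The cells that made Lcp2 and Fyn were not tested, so the sum is not read as T cell transcript alone. In such bulk samples, fewer T cells and less RNA per T cell cannot be told apart.

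The 3 CD3 genes lie together on chromosome 9 of GRCm38. Cd3g (44969572 to 44980431, minus strand) and Cd3d (44981786 to 44987339, plus strand) point away from each other, with 1355 bases between their starts, and Cd3e (44998740 to 45009627, minus strand) lies beside them. Their promoter windows are shown to set these neighbors beside Foxp3 (chromosome X, 7573644 to 7595245, plus strand), the member whose level followed theirs least closely in the class with neither. Foxp3 has 2 windows in the table, of which the second is shown; the first held none of the letters searched for. The sequences are from RefSeq on GRCm38.p6, each with 250 bases before and 50 after an annotated start, 5′ to 3′ on the gene's strand. Capitals mark the E-box letters CACCTG and the ETS letters AGGAAG on either strand, which did not overlap in these windows.
Cd3g, chr9:44980382-44980681: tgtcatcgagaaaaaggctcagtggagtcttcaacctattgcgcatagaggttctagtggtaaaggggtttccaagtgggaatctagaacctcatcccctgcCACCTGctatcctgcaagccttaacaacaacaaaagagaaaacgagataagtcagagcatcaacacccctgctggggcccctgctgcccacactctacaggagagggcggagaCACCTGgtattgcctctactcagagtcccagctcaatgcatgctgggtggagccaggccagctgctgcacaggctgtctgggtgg
Cd3d, chr9:44981536-44981835: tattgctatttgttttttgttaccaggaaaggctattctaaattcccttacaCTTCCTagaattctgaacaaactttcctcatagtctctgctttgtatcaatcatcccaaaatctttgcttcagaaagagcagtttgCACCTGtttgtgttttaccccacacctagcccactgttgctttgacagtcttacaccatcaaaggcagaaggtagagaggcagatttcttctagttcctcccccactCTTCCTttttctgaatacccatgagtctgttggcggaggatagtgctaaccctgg
Cd3e, chr9:45009562-45009861: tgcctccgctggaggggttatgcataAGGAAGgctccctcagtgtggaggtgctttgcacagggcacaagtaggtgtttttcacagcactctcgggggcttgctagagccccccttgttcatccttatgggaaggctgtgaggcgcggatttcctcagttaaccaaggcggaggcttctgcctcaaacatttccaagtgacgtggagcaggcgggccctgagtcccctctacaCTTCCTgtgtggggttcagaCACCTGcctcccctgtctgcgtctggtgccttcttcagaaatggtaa
Foxp3, chrX:7580233-7580532: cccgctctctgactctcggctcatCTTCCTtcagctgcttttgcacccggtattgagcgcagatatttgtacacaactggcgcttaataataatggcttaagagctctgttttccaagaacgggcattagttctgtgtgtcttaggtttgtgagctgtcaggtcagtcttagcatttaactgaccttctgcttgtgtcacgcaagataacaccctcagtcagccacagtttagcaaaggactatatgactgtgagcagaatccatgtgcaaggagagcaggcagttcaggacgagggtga

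RefSeq windows were found for 8 of the 10 members, 12 windows in all. CACCTG stood in 8 of the 12 windows, among them all 3 CD3 windows, and in 20.2% of 32851 promoter windows of the mouse table. AGGAAG stood in 8 of the 12 and in 35.4% of all windows. The GATA letters AGATAA stood in 2 of the 12, those of Cd3g and the second of Foxp3, and in 11.2% of all windows. The RUNX letters TGTGGT stood in 2 of the 12 and in 16.8% of all windows. These are matches of letters in a short window and describe no binding.

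All members were detected in every library, at low levels. The CD3 genes showed the pattern of the other members. Cd3e lay at 2.35, 4.67 and 10.9 CPM (lowest, median and highest library) in the H2-Ea-ps class, at 6.08, 9.62 and 22.8 CPM in the Cp class and at 0.614, 5.35 and 16.4 CPM in the class with neither. The Cp class had the highest median. The class with neither held the lowest libraries of all, CT26 anti-PD-1 40 and CT26 IgG 24, but also MC38 IgG 2, the second highest of the 36, and its range covered that of the H2-Ea-ps class.

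Cd3g followed Cd3e, at 3.65, 6.24 and 9.27 CPM in the H2-Ea-ps class, 8.33, 12.2 and 28.8 CPM in the Cp class and 0.696, 5.21 and 15.9 CPM in the class with neither. Cd3d was at 1.61, 1.75 and 2.67 CPM, then 3.89, 5.33 and 11.3 CPM, then 0.365, 2.68 and 5.79 CPM. Cd3d was thus the tightest member in the H2-Ea-ps class, where its highest library exceeded its lowest 1.66-fold, and there the ranges of the H2-Ea-ps and Cp classes did not overlap.

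The co-receptors differed more. Cd8a was the most abundant member per exon length in all 3 classes, at a median of 3.79, 6.41 and 3.80 RPKM (CPM per kilobase of exon) in the H2-Ea-ps, Cp and neither classes. Cd4 had a median of 0.468, 1.57 and 0.401 RPKM. In CPM, Cd8a lay at 6.00, 13.8 and 20.1 in the H2-Ea-ps class, at 11.9, 23.3 and 57.9 in the Cp class and at 0.851, 13.8 and 36.3 in the class with neither. The lowest and highest libraries of the last class differed 42.7-fold, more than for any other member in any class.

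Cd4 lay at 0.747, 1.89 and 2.92 CPM in the H2-Ea-ps class, at 3.63, 6.31 and 10.5 CPM in the Cp class and at 0.598, 1.62 and 4.68 CPM in the class with neither. All 12 Cp libraries were above all 12 H2-Ea-ps libraries, and 9 of them were above every library with neither. The share of all genes whose class ranges did not overlap was not computed, so such gaps in Cd4, Cd3d or Foxp3 are descriptions only. Cd8b1, the other CD8 chain, ran from 1.79 to 6.72, from 3.87 to 16.6 and from 0.368 to 9.96 CPM in the same order of classes.

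Among the signaling genes, Cd5 separated the classes most. It lay at 0.423, 0.848 and 1.42 CPM in the H2-Ea-ps class, 2.30, 3.98 and 8.53 CPM in the Cp class and 0.327, 1.61 and 4.91 CPM in the class with neither, and no library of the H2-Ea-ps class reached the median of the class with neither. Lck ran from 5.51 to 10.7, 7.89 to 21.2 and 2.59 to 16.1 CPM, and Zap70 from 1.72 to 4.05, 3.81 to 11.1 and 0.851 to 6.57 CPM.

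Foxp3 had a different shape. It lay at 0.843, 1.20 and 3.30 CPM in the H2-Ea-ps class, at 1.97, 3.68 and 7.45 CPM in the Cp class and at 0.639, 1.06 and 1.56 CPM in the class with neither. Every Cp library was above every library with neither. Within the latter class Foxp3 varied only 2.44-fold between its extremes, where Cd3e varied 26.7-fold. The 3.30 CPM is PancO2 anti-PD-1 71, and the other 11 H2-Ea-ps libraries ended at 1.82 CPM. Foxp3 rested on 16 to 40 counts per library in the class with neither, and counting error alone would give an SD of 0.18 on the log2 scale there against the 0.27 seen.

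**Figure D1:**
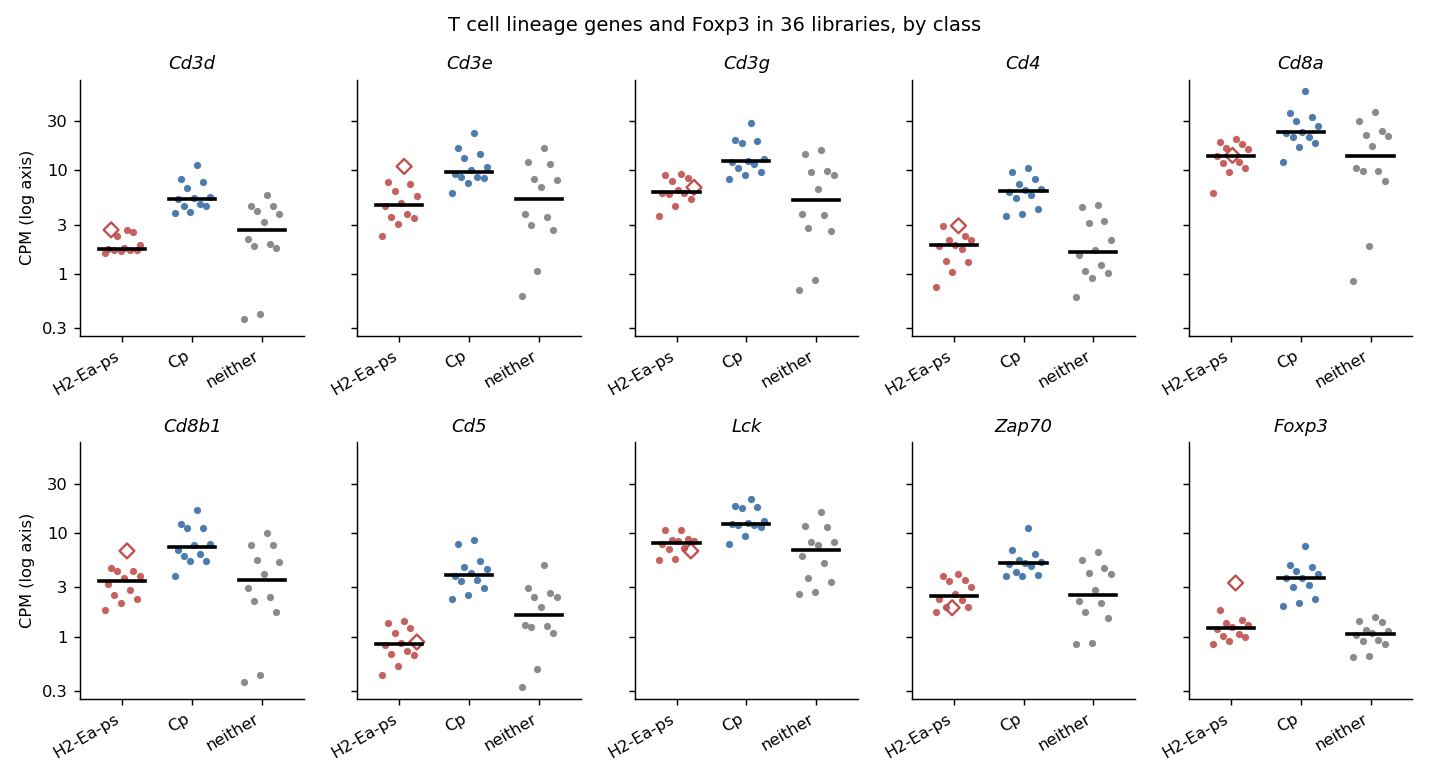
Level of each member in CPM (log axis) in every library, by class, with a point per library and the class median as a bar. The diamond is PancO2 anti-PD-1 71. The Cp class has the highest median for each member, with ranges that overlap the class with neither for all but Foxp3. Cd3e spreads from 0.614 to 16.4 CPM in the class with neither, and Foxp3 stays between 0.639 and 1.56 CPM there.

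Per exon length, the order of the medians was Cd8a, Cd8b1, Lck, Cd3g, Cd3d, Cd3e, Zap70 and Cd4 in the Cp class and in the class with neither, followed by Cd5 and Foxp3. The H2-Ea-ps class had Lck ahead of Cd8b1, Cd3e ahead of Cd3d and Foxp3 ahead of Cd5. The ranges of all neighbors in the 3 orders overlapped. Library by library, Cd8a was above Cd8b1 in 12 of 12 Cp libraries and Cd4 above Cd5 in 12 of 12, while in the same class Zap70 was above Cd4 in 7 of 12 and Cd5 above Foxp3 in 7 of 12.

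The classes were compared in a single edgeR quasi-likelihood fit over all genes and libraries, with labelled treatment as a term, and fold changes below are on the log2 scale with their standard error. All 10 members passed the filter on low counts. The classes were set by 2 genes measured in the same libraries and differ across most of the transcriptome, so the counts are read against the share of all 16323 tested genes called in the same direction.

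The Cp class was higher than the class with neither for 10 of 10 members, where 34% of all genes were called higher and 33.3% lower. The median change of the members was 1.19, and that of all genes was 0.01. Foxp3 rose most, by 1.83 ± 0.22 (adjusted p = 6.0e-09, edgeR), followed by Cd4 at 1.77 ± 0.28 (adjusted p = 9.4e-07, edgeR). The smallest changes were those of Cd8a, 0.94 ± 0.35 (adjusted p = 0.0173, edgeR), and Cd3e, 0.97 ± 0.36 (adjusted p = 0.0192, edgeR). These last 2 calls rest on PancO2 anti-CTLA4 57, the library with the most Cd3e and Cd8a: without it, 8 of 10 members were called, with Cd3e at 0.82 (adjusted p = 0.0522, edgeR) and Cd8a at 0.78 (adjusted p = 0.0528, edgeR).

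Against the H2-Ea-ps class, too, 10 of 10 members were higher in the Cp class, where 36% of all genes were called higher and 36.6% lower. The median change was 1.16, beside −0.04 for all genes. Cd5 rose by 2.30 ± 0.31 (adjusted p = 3.0e-08, edgeR), Cd4 by 1.79 ± 0.28 (adjusted p = 5.1e-07, edgeR), Cd3d by 1.53 ± 0.29 (adjusted p = 1.5e-05, edgeR) and Foxp3 by 1.40 ± 0.22 (adjusted p = 8.2e-07, edgeR). Lck had the smallest called change, 0.79 ± 0.21 (adjusted p = 0.00121, edgeR).

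Between the H2-Ea-ps class and the class with neither, 0 members were called higher and 1 lower, beside 35.9% and 33.9% of all genes. The member called was Cd5, which fell by 0.90 (SE 0.30, adjusted p = 0.00893, edgeR). Changes of the other 9 lay between −0.33 for Cd3d and 0.43 for Foxp3 and did not pass, with 5 of the 10 above 0. At an unadjusted p under 0.05, 1 member passed.

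Ptprc, the gene of the pan-leukocyte surface protein CD45, was used to set the members against all leukocyte RNA. It had medians of 105, 133 and 126 CPM in the H2-Ea-ps, Cp and neither classes. With counts taken relative to Ptprc, 10 of 10 members stayed higher in the Cp class than in the class with neither, where this scale called 22.6% of all genes higher and 26.9% lower and put their median at −0.06. Against the H2-Ea-ps class 8 of 10 did, beside 20.7% of all genes called higher and 41.4% lower, with Cd3e at 0.67 (adjusted p = 0.0581, edgeR) and Cd8a at 0.54 (adjusted p = 0.113, edgeR), on a scale that put the median of all genes at −0.30. Between the H2-Ea-ps class and the class with neither, where this scale put that median at 0.22 and called 36.9% of all genes higher and 18.7% lower, Lck (0.62, adjusted p = 0.00207, edgeR) and Foxp3 (0.62, adjusted p = 0.0172, edgeR) were called higher and Cd5 was no longer called (−0.61, adjusted p = 0.0522, edgeR).

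**Figure D2:**
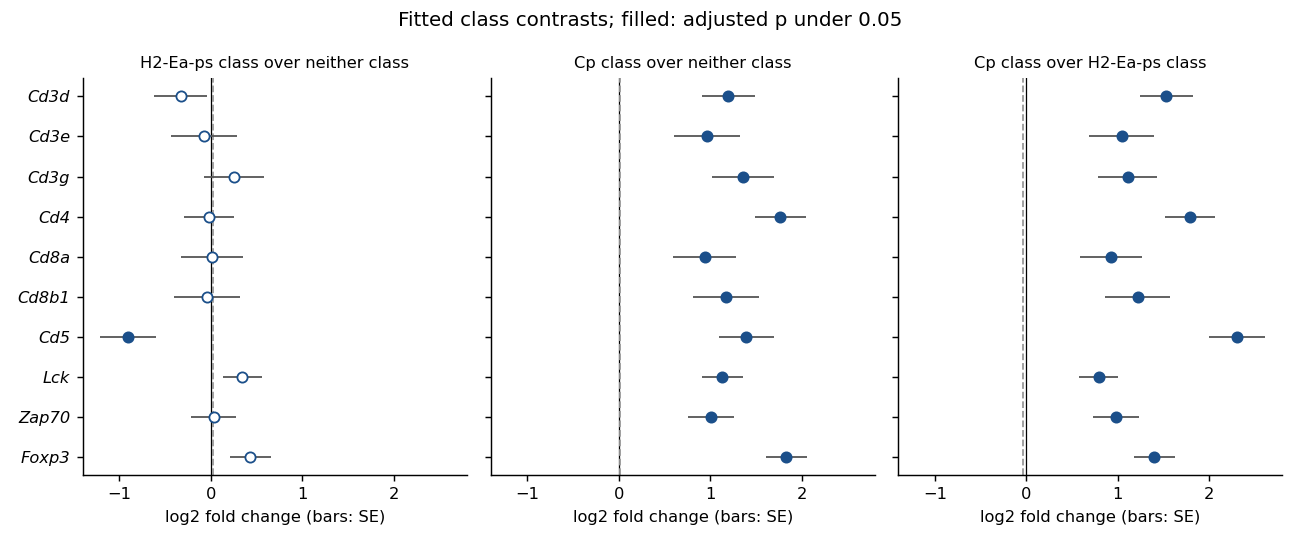
Fitted log2 fold change of each member (x axis, bars are standard errors) in the 3 class contrasts, filled where the adjusted p was under 0.05; the dashed line is the median of all genes. All 10 members lie above 0 in the contrasts of the Cp class, and Cd5 is the filled point at −0.90 in the contrast of the H2-Ea-ps class with the class with neither.

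Most other genes of the T cell receptor pathway, from a list of 19, were higher in the Cp class, as the members were. In the Cp class over the class with neither 14 were higher and 0 lower, led by Trat1, an adaptor of the receptor (2.24 ± 0.55), Sit1, an inhibitory adaptor (1.73 ± 0.53), Cd2, an adhesion receptor (1.70 ± 0.27), and Lat, the hub of the signaling complex (1.52 ± 0.25). Over the H2-Ea-ps class 12 were higher, with Lat at 1.95 ± 0.25, and 1, the kinase gene Txk, was lower. Between the H2-Ea-ps class and the class with neither 4 were higher and 2, Fyn and Lcp2, lower, and Txk had the largest change, 1.46 ± 0.20. Without PancO2 anti-PD-1 71, a choice made after its values were seen, 17 were higher in the Cp class than in the H2-Ea-ps class, and 2 were higher and 3 lower in the H2-Ea-ps class than in the class with neither. Trat1 went from 1.40 ± 0.59, called, to 0.55 ± 0.42, not called, in the last contrast, and Cd28 also lost its call. Counts of this list and of those below stand beside the shares of all genes called with all libraries. The shares were 34% higher and 33.3% lower in Cp over neither, and 36% and 36.6% in Cp over H2-Ea-ps. In H2-Ea-ps over neither they were 35.9% and 33.9%.

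Genes that accompany Foxp3 in regulatory T cells did not all follow it. Of 13 such genes, 12 were tested. Some had more transcript than Cd3e, whose medians were 4.67, 9.62 and 5.35 CPM in the H2-Ea-ps, Cp and neither classes. Tnfrsf9 had medians of 70.2, 59.8 and 31.6 CPM, and Tigit had 11.4 CPM in the H2-Ea-ps class. Which cells made them was not tested. In the Cp class over the class with neither 9 were higher and 0 lower, with Ccr8, a chemokine receptor of tumor regulatory T cells, at 3.52 ± 0.34, the costimulatory receptor gene Icos at 2.43 ± 0.34, Ctla4 at 2.40 ± 0.34 and Il2ra, the IL-2 receptor chain, at 2.27 ± 0.48. In the H2-Ea-ps class over the class with neither 7 were higher and 3 lower, beside 35.9% and 33.9% of all genes. Foxp3 was not called there. Il2ra (1.80 ± 0.51), Ikzf4 (1.54 ± 0.39) and Icos (1.38 ± 0.32) were among the higher and Tnfrsf18, which encodes the receptor GITR, was lowest (−2.10 ± 0.17). The size of the first rests on PancO2 anti-PD-1 71, which had 145.4 CPM of Il2ra against a class median of 6.41 CPM: without this library Il2ra was at 0.80 ± 0.23, Ikzf4 at 1.07 ± 0.25 and Icos at 1.34 ± 0.33, all still called. The Cp class over the H2-Ea-ps class had 7 higher and 1 lower, Tigit, and 10 higher and 1 lower without it, with Il2ra going from 0.48 ± 0.47, not called, to 1.66 ± 0.23.

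Calls of cytotoxic genes differed from that of Cd8a. In the H2-Ea-ps class over the class with neither, where Cd8a was not called, Gzma (2.84 ± 0.38), Prf1 (2.31 ± 0.37) and Gzmb (1.61 ± 0.34), which encode granzymes and perforin, were higher and the chemokine gene Ccl5 was lower (−2.54 ± 0.30). That is 3 of 8 genes higher and 1 lower, beside 35.9% and 33.9% of all genes. In the Cp class over the H2-Ea-ps class, where Cd8a was higher, Gzma (−3.07 ± 0.38), Prf1 (−2.86 ± 0.37) and Gzmb (−1.92 ± 0.34) were lower, and 1 of the 8 genes on the list, Ccl5, was higher. Over the class with neither, 2 of 8 were higher in the Cp class, Ifng and Nkg7, beside 34% of all genes. NK cells also make granzymes and perforin, and Ncr1, the gene of their receptor NKp46, had medians of 3.82, 0.392 and 0.740 CPM in the H2-Ea-ps, Cp and neither classes. Of 5 tested NK cell genes, 3 were lower in the Cp class than in the H2-Ea-ps class, beside 36.6% of all genes. The part of NK cells in the cytotoxic genes was not tested.

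Checkpoint receptor genes of T cells (Pdcd1, Lag3, Havcr2, Cd160, Btla and Tox) were higher in the Cp class for 4 of 6 genes in each contrast, with Btla at 2.34 ± 0.30 over the class with neither and 3.11 ± 0.31 over the H2-Ea-ps class. Of all genes, 34% and 36% were called higher in these contrasts. Of 8 tested factors that direct helper or CD8 lineages, 5 were higher and Eomes lower (−2.52 ± 0.24) in the Cp class over the class with neither. Tcf7, the gene of the factor TCF1, stood at 5.53 ± 0.09 in the Cp class over the H2-Ea-ps class, with a smaller SE than any member. It lay at 65.0 to 87.3 CPM in the Cp class and 22.2 to 34.2 CPM with neither, where Cd3e lay at 6.08 to 22.8 and 0.614 to 16.4 CPM. Zbtb7b (medians of 76.5, 52.9 and 49.1 CPM in the H2-Ea-ps, Cp and neither classes) and Runx3 (28.8, 64.1 and 25.9 CPM) were also above Cd3e. Which cells made these factors was not tested.

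Markers of other cells differed between the classes as well, and their part in the members' levels was not tested. Genes of type 1 dendritic cells, which can carry Cd8a, summed to 153 to 251 CPM in the H2-Ea-ps class, 250 to 458 CPM in the Cp class and 38.8 to 101 CPM in the class with neither. Most of the sum in the first 2 classes was Cadm1, an adhesion gene that other cells also use, with medians of 144.7, 224.8 and 8.74 CPM. Clec9a, the defining receptor gene of these cells, had medians of 1.59, 10.4 and 9.75 CPM, and Xcr1 had medians of 2.87, 16.4 and 2.02 CPM. All 5 genes were higher in the Cp class than in the H2-Ea-ps class, and 3 were higher and 2 lower in the H2-Ea-ps class than in the class with neither (1 and 2 without PancO2 anti-PD-1 71). The ratio of Cd8b1 to Cd8a counts had medians of 0.240, 0.326 and 0.252. NK cell genes summed to 8.89 to 21.1, 4.11 to 10.9 and 10.7 to 31.7 CPM, and Klra8 was at 0 in 12 of 12 libraries of the H2-Ea-ps class. H2-Ea-ps is expressed in BALB/c mice, and whether host strain or NK cell content gave this 0 was not tested. The high sum with neither was mostly Eomes, which T cells also make (medians of 4.28, 1.92 and 9.69 CPM), whereas Ncr1 was higher in the H2-Ea-ps class than in the class with neither by 2.51 ± 0.28. In that contrast 3 of 5 tested NK cell genes were higher and 2 lower (2 and 2 without PancO2 anti-PD-1 71). The 4 matched genes of gamma-delta T cells summed to 4.57 to 12.0, 26.1 to 43.5 and 3.63 to 7.02 CPM, most of it Sox13. Macrophage genes summed to 610 to 1258, 875 to 1479 and 1288 to 2021 CPM. Neutrophil genes summed to 20.6 to 91.3, 47.5 to 199 and 167 to 833 CPM, but the last was mostly Mmp9 (medians of 8.44, 18.4 and 476.3 CPM), and S100a8 had medians of 3.39, 10.9 and 8.94 CPM. Plasmacytoid dendritic cell genes summed to 275 to 357, 256 to 463 and 403 to 547 CPM, where Tcf4, which many cells make, was highest with neither (medians of 175.7, 141.6 and 377.3 CPM) and Siglech, a defining gene of these cells, lowest there (1.63, 2.08 and 0.538 CPM). B cell genes stayed between 1.49 and 6.70 CPM in all libraries but PancO2 anti-PD-1 71, which had 38.9 CPM. The 6 matched genes of lymph node stroma and homing summed to 35.7 to 94.3, 8.17 to 21.4 and 3.92 to 12.3 CPM. Thymocyte genes reached 0.347 CPM in the Cp class, 0.337 CPM in the class with neither and 2.92 CPM in PancO2 anti-PD-1 71, and Ptcra was at 0 in all libraries.

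The CD8 to CD4 ratio, taken within a library as Cd8a over Cd4 counts with 0.5 added to each, does not depend on the library total. It lay at 3.38, 8.18 and 13.4 in the H2-Ea-ps class, at 1.25, 4.03 and 7.81 in the Cp class and at 0.704, 7.99 and 17.1 in the class with neither. Most Cp libraries were below most H2-Ea-ps libraries, with overlapping ranges, and the class with neither spanned both. The mean log2 ratio was 0.92 lower in the Cp class than in the H2-Ea-ps class (difference −0.92; permutation p = 0.00117, two-sided; adjusted p = 0.00702 over 6 ratio comparisons). It was lower by a mean of −0.63 than in the class with neither (adjusted permutation p = 0.319), and the H2-Ea-ps class differed from the class with neither by 0.29 (adjusted permutation p = 0.631).

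With Cd8b1 in place of Cd8a the difference between the Cp and H2-Ea-ps classes was −0.58 and did not pass (adjusted permutation p = 0.106). Leaving out CT26 IgG 24, which has the lowest ratio of all, put the difference between the Cp class and the class with neither at −0.92 (adjusted permutation p = 0.0408). CT26 IgG 24 and CT26 anti-PD-1 40 were low in Cd8a, at 0.851 and 1.84 CPM, but not to the same degree in Cd4, at 1.22 and 1.06 CPM.

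The Foxp3 to CD4 ratio overlapped across the classes and passed no test. It lay at 0.374, 0.691 and 1.76 in the H2-Ea-ps class, at 0.349, 0.614 and 1.10 in the Cp class and at 0.199, 0.531 and 2.31 in the class with neither. The mean log2 ratio differed by −0.36 between the Cp and H2-Ea-ps classes (adjusted permutation p = 0.319), by −0.03 between the Cp class and the class with neither (adjusted permutation p = 0.918) and by 0.33 between the H2-Ea-ps class and the class with neither (adjusted permutation p = 0.495). Taken to Cd3e instead of Cd4, the Cp class was above the H2-Ea-ps class by 0.32 and above the class with neither by 0.55, and neither passed (adjusted permutation p = 0.342 for each). Foxp3 and Cd4 thus differed between the classes by amounts that their ratio did not separate, and the counts behind them were as low as 12 for Foxp3 and 10 for Cd4.

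**Figure D3:**
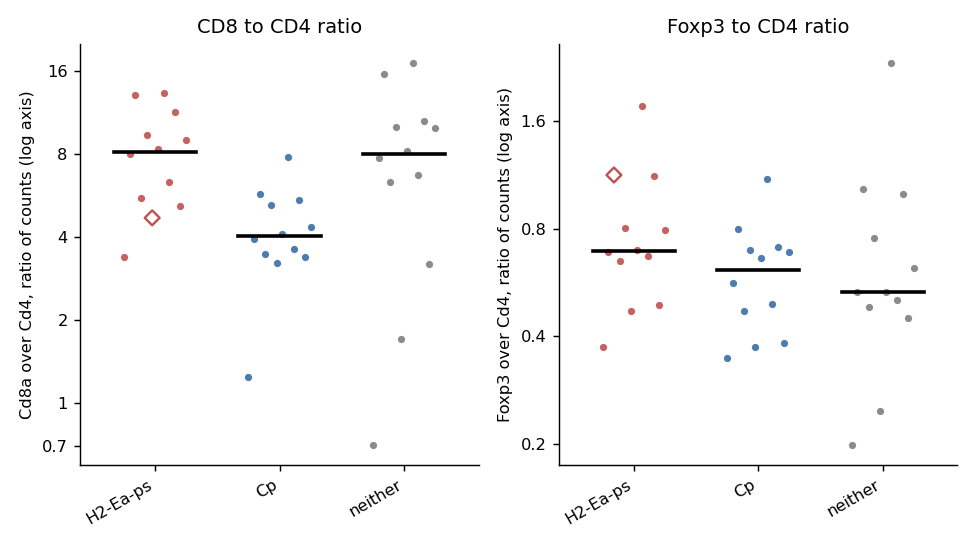
Ratio of Cd8a to Cd4 counts (left) and of Foxp3 to Cd4 counts (right) in every library on log axes, by class, with the class median as a bar and PancO2 anti-PD-1 71 as a diamond. The Cp class has a median CD8 to CD4 ratio of 4.03 against 8.18 in the H2-Ea-ps class, and the Foxp3 to CD4 ratios of the 3 classes cover each other.

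Co-variation was examined within each class, because the classes form separate clusters, as Pearson's r and Spearman's rho of log2(CPM + 0.5) over 12 libraries. The 135 relations (45 pairs in 3 classes) were adjusted together, with 1e-05 the smallest p that 100000 permutations can give. A positive relation was called for 36 of 45 pairs in the class with neither, 37 in the Cp class and 17 in the H2-Ea-ps class, and a negative relation for 0. The median r was 0.94, 0.79 and 0.54 in that order of classes. With counts relative to Ptprc the numbers were 28, 13 and 25, so that the Cp class and not the H2-Ea-ps class had the fewest. Members share each library's total and its T cell content, so these pairs are not independent of each other.

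In the class with neither, the 8 members other than Foxp3 and Cd4 had an r of at least 0.89 with each other. Cd3e and Cd3g had r = 0.99 (permutation p = 1e-05, adjusted p = 5.2e-05) and rho = 1, and r = 0.99 without the 2 libraries farthest from the median of Cd3e. Cd3e and Zap70 had r = 0.98 (permutation p = 1e-05, adjusted p = 5.2e-05; rho = 0.97), and Cd8a and Cd8b1 r = 0.97 (permutation p = 1e-05, adjusted p = 5.2e-05; rho = 0.97). Cd4 was looser, with an r of 0.59 to 0.79 with these 8. Of the 36 pairs without Foxp3, 35 were called, and the other was Cd4 with Cd8a (r = 0.59, rho = 0.71, adjusted permutation p = 0.058).

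The values of Foxp3 were lower still. In the class with neither its r with the other 9 members ran from 0.25 with Cd4 to 0.62 with Cd3d, and only the latter was called (adjusted permutation p = 0.0491, rho = 0.45), at r = −0.02 without the 2 libraries farthest from the median of Cd3d. Foxp3 with Cd3e had r = 0.46 (rho = 0.28, adjusted permutation p = 0.157) and r = −0.23 without the 2 libraries farthest in Cd3e. Without CT26 IgG 24 the median r of Foxp3 with the 9 was 0.30 and 0 were called, and leaving out each library in turn gave 0 to 3 called. The spread of Foxp3 in this class was 1.53 times what counting error alone would give, against 10.1 times for Cd3e.

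In the Cp class Foxp3 followed the others more closely in CPM. Its r ran from 0.55 with Cd4 to 0.85 with Lck (rho = 0.84, adjusted permutation p = 0.00143), and 6 of its 9 pairs were called (4 without CT26 IgG 28). Relative to Ptprc 1 of the 9 was called, and the median r of Foxp3 with the other members was 0.30 in place of 0.69. Foxp3 with Cd3e had r = 0.74 (rho = 0.80, adjusted permutation p = 0.0107) and r = 0.65 without the 2 farthest libraries. Whether the relation of Foxp3 to Cd3e differs between classes was not tested. Foxp3 rested on 36 to 191 counts per library here, and its spread was 3.51 times the counting error.

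Cd4 was the looser member of this class. It was called with Cd5 (r = 0.73, rho = 0.76, adjusted permutation p = 0.0148), Cd3d (r = 0.68, rho = 0.83, adjusted permutation p = 0.0262) and Cd3e (r = 0.67, rho = 0.78, adjusted permutation p = 0.027), and not with Cd8a (r = 0.28, rho = 0.42, adjusted permutation p = 0.398). Cd8a and Cd8b1 had r = 0.97 (rho = 0.96, adjusted permutation p = 5.2e-05). Relative to Ptprc, which itself followed Cd3e in this class (r = 0.86, rho = 0.84, adjusted permutation p = 0.00513; r = 0.83 without the 2 farthest), 13 of 45 pairs were called in place of 37.

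The H2-Ea-ps class held the fewest called pairs in CPM. Cd3g with Cd8a had r = 0.91 (rho = 0.90, adjusted permutation p = 0.000236), Cd3e with Cd3d had r = 0.88 (rho = 0.81, adjusted permutation p = 0.000219), Cd3e with Cd8b1 r = 0.88 (rho = 0.81, adjusted permutation p = 0.00069) and Lck with Zap70 r = 0.79 (rho = 0.88, adjusted permutation p = 0.00624). Cd4 was called with 0 of the other 9 members and Foxp3 with 0 of 9, its r running from −0.43 with Zap70 to 0.50 with Cd3e. The last value rests on PancO2 anti-PD-1 71: without the 2 libraries farthest in Cd3e it was −0.0037, and without that library alone the highest r of Foxp3 with any member was 0.135, while 22 pairs of the others were called in place of 17. Without PancO2 anti-PD-1 64 instead, 1 pair with Foxp3 was called. Cd3d and Cd5 had spreads of 1.22 and 1.43 times counting error in this class, which limits any r they can show.

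**Figure D4:**
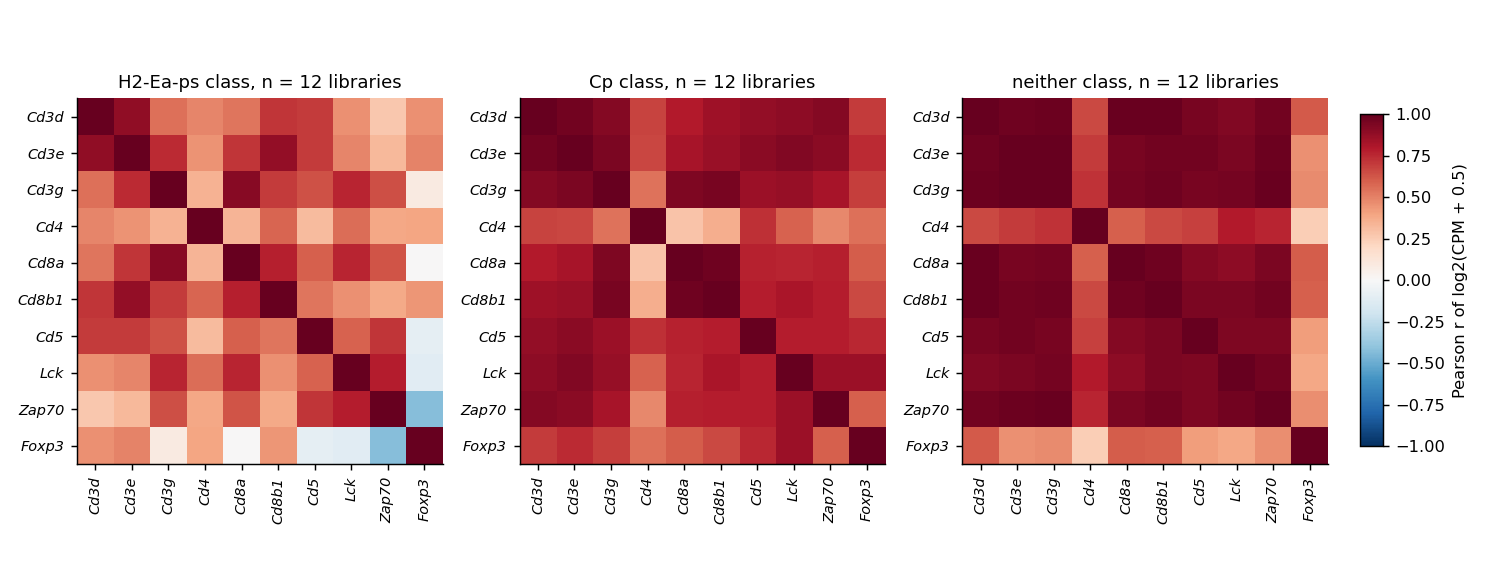
Pearson's r of log2(CPM + 0.5) for all pairs of members within each class of 12 libraries, from −1 (blue) to 1 (red). The block without Foxp3 and Cd4 is darkest in the class with neither, with a median r of 0.95 over the 36 pairs without Foxp3, and the Foxp3 row is pale there and in the H2-Ea-ps class.

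The relation of Cd3e and Foxp3 to lists of other genes was examined in the same way, as 114 relations adjusted together. The summed level of 8 cytotoxic genes followed Cd3e in the class with neither (r = 0.86, rho = 0.82, adjusted permutation p = 0.00513; r = 0.90 without the 2 farthest libraries) and in the Cp class (r = 0.80, rho = 0.74, adjusted permutation p = 0.0208; r = 0.79). In the H2-Ea-ps class r was −0.02 (rho = 0.10, adjusted permutation p = 0.962; r = 0.40 without the 2 farthest). Checkpoint receptor genes followed Cd3e in the class with neither (r = 0.91, rho = 0.90, adjusted permutation p = 0.00171; r = 0.85) and in the Cp class (r = 0.91, rho = 0.87, adjusted permutation p = 0.00342; r = 0.76), and had r = 0.51 in the H2-Ea-ps class (rho = 0.48, adjusted permutation p = 0.204; r = 0.68). Regulatory T cell genes followed Cd3e in the H2-Ea-ps class (r = 0.86, rho = 0.89, adjusted permutation p = 0.00513; r = 0.77) and not Foxp3 (r = 0.37, rho = −0.13, adjusted permutation p = 0.392; r = −0.67 without the 2 farthest libraries in Foxp3). The summed genes of type 1 dendritic cells, in which Tlr3 had the highest median there, followed Cd3e in the class with neither (r = 0.80, rho = 0.83, adjusted permutation p = 0.0176; r = 0.70), and their part in the levels of the members was not tested. The differences between the classes were not tested, and single genes made up much of these sums. In the H2-Ea-ps class Tnfrsf9 had a median of 70.2 CPM, where the summed regulatory T cell genes had 112.1 CPM. Ccl5 had medians of 3.89, 27.1 and 31.4 CPM in the H2-Ea-ps, Cp and neither classes. Gzmb had 34.8, 8.53 and 11.7 CPM, so the cytotoxic sums were not made up alike. Havcr2 led the checkpoint sum (medians of 15.9, 31.8 and 18.1 CPM). The relations of these single genes were not tested.

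**Figure D5:**
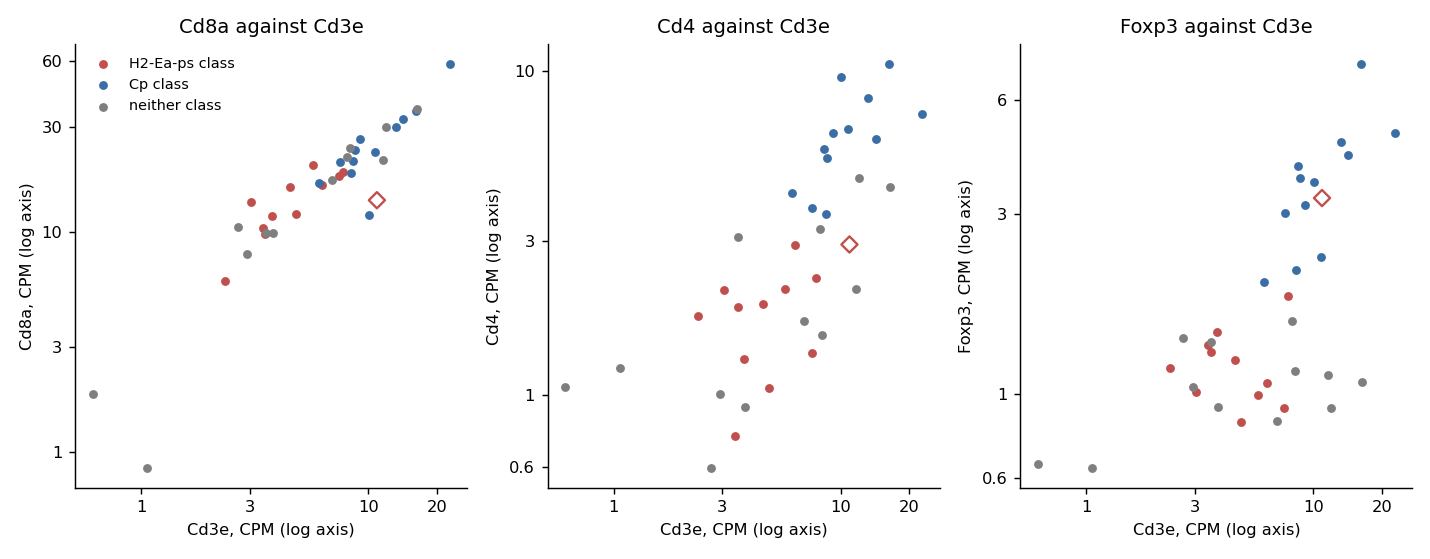
Cd8a (left), Cd4 (middle) and Foxp3 (right) against Cd3e in CPM on log axes, a point per library, colored by class, with PancO2 anti-PD-1 71 as a diamond. Cd8a follows Cd3e in every class, while Foxp3 in the class with neither goes no higher than 1.56 CPM as Cd3e goes from 0.614 to 16.4 CPM.

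Foxp3 has 4577 exonic bases in the annotation. Its exons overlap those of Ppp1r3f, Ccdc22 and Gm36995 on the other strand and of Flicr on its own strand. The overlaps add up to 2082 bases over these genes, where a base shared with more than 1 of them counts more than once. The labels name a library kit that does not mark strand. The study's methods name a stranded kit in a section on mutations, which does not say whether it covers these tumors. How reads were assigned by strand is not given in the sources used here, so reads in the shared bases cannot be told apart. Ccdc22, a broadly expressed gene, reached at most 0.0846 CPM in any library. Flicr had a median of 0.924, 0.648 and 0.858 CPM in the H2-Ea-ps, Cp and neither classes and its maximum of 5.46 CPM in PancO2 anti-PD-1 71, without which no library of the first class was above 1.08 CPM. Ppp1r3f had a median of 3.44, 3.995 and 7.15 CPM, highest in the class with neither, where Foxp3 was lowest. Within the H2-Ea-ps class it ran against Foxp3 (r = −0.87, rho = −0.80, adjusted permutation p = 0.0176; r = −0.81 without the 2 farthest libraries), and in the Cp class and the class with neither r was 0.61 (rho = 0.57, adjusted permutation p = 0.109) and 0.12 (rho = 0.20, adjusted permutation p = 0.805). The part of the shared bases in the level of Foxp3 was not tested.

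The genes whose pattern was most like a member were ranked by the mean of the 3 within-class values of r, as a description with no test, among 12460 genes of at least 1 CPM on average in each class. For Cd3e they were Themis (mean r = 0.93), Trac, the constant segment of the receptor alpha chain (0.92), Ms4a4b (0.89), Tbx21 (0.86) and Lag3 (0.84), where the median over all genes was −0.06. For Cd8a they were Klrc1 (0.91), Cxcr6 (0.90), Sh2d2a (0.89), Cd6 (0.88) and Tox (0.87). For Cd4 the values were lower, with Grk3 (0.78), Lax1 (0.76), Csf2ra (0.74), Il18r1 (0.73) and Lpcat2 (0.73), and a median of 0.54 with the other members compared. For Foxp3 they were Igsf6 (0.77), Unc13d (0.75), Trim5 (0.69), Rasa4 (0.69) and Il2ra (0.69). Without PancO2 anti-PD-1 71 none of the 5 for Foxp3 stayed among the first 5, and Il2ra fell to 0.34, whereas Klrc1, Cxcr6 and Tox stayed for Cd8a and Themis and Trac for Cd3e. Cd5 was below 1 CPM on average in the H2-Ea-ps class and was not ranked.

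The study's own groups were compared as labelled, with the check of the labels above in mind, and directions here are between labels. With class as a term, 0 of 10 members were called for anti-CTLA4 over IgG and 0 of 10 for anti-PD-1 over IgG, beside 0% of all genes in each (edgeR). At an unadjusted p under 0.05, 331 genes passed for anti-CTLA4 and 0 of the members, and 741 genes passed for anti-PD-1, 2 of the members among them. These were Lck (−0.60 ± 0.22, adjusted p = 0.93, edgeR) and Zap70 (−0.53 ± 0.26, adjusted p = 0.93, edgeR). Both gene counts are below a share of 0.05 of the 16323 tested genes, the share that chance alone gives. Of the 10 members, 9 had a negative value for anti-PD-1, with a median of −0.51 beside 0.0037 for all genes, and Foxp3 was the exception at 0.16 ± 0.22. Members co-vary within the classes, so these 9 values are not independent of each other. For anti-CTLA4 the members lay between −0.26 for Cd5 and 0.05 for Zap70.

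Within the labelled models, 0 members were called in any of 6 treatment comparisons, beside 0% of all genes in each (edgeR), and 0 members had an unadjusted p under 0.05. These fits and those of the IgG libraries below had no term for class, and each labelled model held libraries of all 3 classes. Class differences thus added to the spread within groups, which limits what these fits can call. Among the libraries labelled IgG, 0 members were called between any of the 3 models, again beside 0%, and 1 member had an unadjusted p under 0.05, for CT26 over MC38. All 10 members had a negative value there, with a median of −0.91, and all 10 a positive one for PancO2 over CT26, with a median of 0.60. These comparisons share the CT26 IgG libraries, and the members co-vary, so the 10 values are not independent. The DESeq2 Wald test also called 0 members in these 9 comparisons, with an adjusted p for 8 of 10 in PancO2. The spread inside a labelled group was large. Cd8a was at 24.2 ± 11.02 CPM in MC38 IgG, 13.7 ± 8.71 CPM in CT26 IgG and 22.3 ± 4.35 CPM in PancO2 IgG (SD, n = 4), and in PancO2 anti-CTLA4 it ran from 9.75 to 57.9 CPM. Foxp3 was at 2.25 ± 1.63, 1.11 ± 0.59 and 1.74 ± 0.98 CPM in the same 3 IgG groups (SD, n = 4).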

How the data were processed

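RNA from 36 tumors was sequenced as poly-A libraries. The authors mapped reads with TopHat and Bowtie to GRCm38/mm10 and deposited a table of raw counts per Ensembl gene made with HTSeq (07.2 in the submitters' processing notes, which also name FastQC 0.11.5). The Ensembl release and the strand setting are not given in the sources used here. The 5 rows that name no gene, 44.8% to 86.5% of the reads per library, were left out of totals and tests.

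CPM was computed over the other rows. Class contrasts used edgeR 4.0.16 in R 4.3.3 (TMM, expression filter by class, quasi-likelihood test, labelled treatment as a term, Benjamini-Hochberg over all genes, adjusted p under 0.05), tested on simulated data. Labelled comparisons within a model or among the IgG libraries were fitted within the libraries concerned, with no term for class. The study's methods name limma without its covariates, so limma-voom was an alternative, as was DESeq2 1.42.0. Ratios and correlations used permutation tests (100000, two-sided, scipy 1.17.1). Mouse numbers mark separate mice per the labels. Counting error alone was taken as Poisson, and reads carry no molecular identifiers. The members and lists were chosen with earlier results of these data known. Up to 4 called genes per list and contrast were named, those with the largest change. Where a list had 5 or fewer called in a direction, these were named too, after their values were seen. Sequences came from RefSeq on GRCm38.p6.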

Additional observations from a re-analysis of the deposited data

Results flagged for a closer look

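Among 108 sets of 4 values (members and ratios in each labelled group), 8 held a library with a wide gap to the remaining 3, where chance gives about 5.4, or 1 in 20. PancO2 anti-CTLA4 57 had 57.9 CPM of Cd8a against 9.75 to 11.9 CPM in the rest of its group, and 16.6 CPM of Cd8b1 against 2.12 to 3.87 CPM. Zap70 was at 4.19 CPM in CT26 anti-CTLA4 36 against 2.19 to 2.28 CPM, and at 4.85 CPM in PancO2 IgG 48 against 4.02 to 4.13 CPM. Foxp3 was at 4.28 CPM in MC38 anti-CTLA4 8 against 0.917 to 1.23 CPM, and at 4.003 CPM in CT26 anti-CTLA4 36 against 0.843 to 1.38 CPM. These 4 libraries were in the Cp class. Lck was at 2.59 CPM in CT26 IgG 24 against 7.89 to 8.74 CPM, and the Foxp3 to CD4 ratio was 2.31 in CT26 anti-PD-1 41 against 0.623 to 0.690. These 2 libraries were in the class with neither.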

How the results depend on the processing

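Over all alternatives, 1314 member fold changes kept their direction and side of the threshold, 29 lost a call, 6 gained 1 and 61 changed sign. The sign changes were all in H2-Ea-ps over neither, apart from 2 with Cp above 2000 CPM. A change of at least 1 on the log2 scale was met by 3944, 3579 and 4512 genes in H2-Ea-ps over neither, Cp over neither and Cp over H2-Ea-ps, and by 0 members lower in the first. A Cp minimum of 2000 CPM left 1 library in the Cp class, assumed to vary like the others, and 1 and 3007 genes were called in its contrasts with neither and with H2-Ea-ps, 0 members higher in each and 3 members lower in H2-Ea-ps over neither. There Cd3g was at −0.56, Cd8a at −0.53, Lck at −0.33, Zap70 at −0.56 and Foxp3 at −0.76, and in Cp over neither Cd8b1 was at −0.087 and Foxp3 at −0.37. No ratio could be tested in that class of 1. In H2-Ea-ps over neither, limma-voom put Cd3e at 0.047, Cd4 at 0.051 and Cd8b1 at 0.20, counts relative to Ptprc put them at 0.23, 0.22 and 0.26 with 2 members higher and 0 lower, and a Cp minimum of 500 CPM put Cd4 at 0.032 and Cd8b1 at 0.033. Cd8a and Zap70 were at −0.091 and −0.073 with library size only, at −0.033 and −0.012 with no filter and at −0.10 and −0.070 with no treatment term. DESeq2 called 1 gene in PancO2 over MC38 IgG and 1 in CT26 over MC38 IgG, and 2 in PancO2 for each antibody. The CD8 to CD4 difference of Cp over H2-Ea-ps was −0.58 with Cd8b1, the Foxp3 differences with Cd3e were 0.55 and 0.32, and 13 Cp pairs were called relative to Ptprc. The cause was not tested for any of these.

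Leaving out each library in turn gave, in H2-Ea-ps over neither, 0 to 1 members higher, Cd3e from −0.24 to 0.13, Cd4 from −0.13 to 0.16, Cd8a from −0.12 to 0.17, Cd8b1 from −0.20 to 0.13 and Zap70 from −0.072 to 0.18. Without MC38 IgG 2, Lck passed (0.49, adjusted p = 0.0303, edgeR), and without PancO2 IgG 49, Foxp3 did (0.51, adjusted p = 0.0471, edgeR). In Cp over neither, the CD8 to CD4 difference ran from −0.92 to −0.48 and the Foxp3 to CD4 difference from −0.17 to 0.15. An H2-Ea-ps minimum of 1 CPM moved no library. No paired analysis was possible because each mouse number belongs to 1 library. Cd5 and Foxp3, with as few as 5 and 12 counts in a library, are the members that depth limits most.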
